A study of Mus musculus with 4 samples.

Results

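The genes described here make, take up, store and export cholesterol and fatty acids, or answer to the oxysterol receptor LXR. They were chosen by name, as 41 listed genes, of which 39 were found among the 18193 genes with a probe set assigned to that gene alone. The other 2, Soat1 and Nr1h2, were not analysed here. The 39 fell into 16 genes of sterol synthesis, 5 that encode or control the transcription factor SREBP and 2 of sterol handling. Another 7 were of LXR and lipid export, 5 of fatty acid synthesis and 4 of fatty acid binding and storage. Each gene is given by its brightest probe set, by the mean of the 4 arrays.

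Expression was measured on Affymetrix arrays in macrophages that were grown out of the marrow of mouse bones in 5 days of M-CSF, a macrophage growth factor. The cells were Jmjd3-/- with LPS, Jmjd3-/- unstimulated, wild type with LPS, or wild type unstimulated, and each of these 4 groups had 1 array. Jmjd3, encoded by Kdm6b, removes methyl groups from lysine 27 of histone H3, and LPS, the cell wall lipopolysaccharide of Gram-negative bacteria, was given at 100 ng/ml for 4 h. The labels leave unstated the deleted part of the gene, the strain, age and number of mice, and whether the samples came from separate animals. No group has a repeat array, so the p-values measure neither technical spread nor spread between mice. They rest on the model error described below.

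Cholesterol is built from acetyl-CoA by a chain of enzymes whose genes are switched on by SREBP2, while SREBP1 acts mainly on fatty acid synthesis. SCAP carries SREBP to the Golgi when sterols are low, and the INSIG proteins hold it back when sterols are high. When sterols accumulate, oxysterols activate LXR, which pairs with the retinoid receptor RXR and raises the genes of cholesterol exporters. Macrophages take up much cholesterol from dead cells and lipoproteins, and their sterol genes are known to respond to Toll-like receptor signals and interferon.

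Values are log2 RMA intensities, so a difference of 1 is 2-fold, and levels of different probe sets are not set against each other. A gene counted in a comparison when the higher array reached log2 6, a floor below which readings are treated as background, and 29 of the 39 genes reached it on all 4 arrays. Elovl6, a fatty acid elongase gene, reached it on none, with a range of 2.86 to 5.09, and is left out of the counts. With 1 array a group, a difference between 2 arrays has no test and is counted when it is 2-fold or more. The LPS effect over both genotypes and the genotype effect over both states were tested with limma in an additive model of all 4 arrays, with p-values adjusted by Benjamini-Hochberg over 9385 genes and standard errors (SE) from the fit. That model has 1 residual degree of freedom: its error is how far the response of Jmjd3-/- cells departs from that of wild-type cells, moderated across genes. The words rose and fell are kept for genes with an adjusted p below 0.05 in it.

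The arrays were alike in overall level, with between 32.1% and 34.5% of probe sets reaching the floor. Kdm6b itself read 10.82 with LPS and 9.82 unstimulated in Jmjd3-/- cells, and 11.23 with LPS and 10.33 unstimulated in wild-type cells, on its brightest probe set. On that probe set, which is of a less specific class, Kdm6b thus remained well above the floor in the cells labelled Jmjd3-/-. Another Kdm6b probe set went the other way, at 6.07 with LPS and 5.35 unstimulated in Jmjd3-/- cells, against 5.22 and 4.71 in wild type. The remaining one lay under the floor on every array. Kdm6b does not settle the labels, because its probe sets differ and the deleted part is unknown. All 10 macrophage markers looked for, among them Csf1r and Adgre1, reached the floor on every array. Between the genotypes 1 of the 10, Fcgr1, rose in the additive model (0.76, limma adjusted p = 0.0325) and 1, Itgam, fell (-1.04, limma adjusted p = 0.0385). C5ar1 was higher by 1.08 in Jmjd3-/- cells with LPS. Markers of other cells also differed between the genotypes. All 12 granulocyte markers found reached the floor on both Jmjd3-/- arrays, against 6 with LPS and 3 unstimulated in wild type. Their summed level was log2 15.2 on both Jmjd3-/- arrays, against 12.2 with LPS and 11.8 unstimulated in wild type. Of 15 stromal markers 13 with LPS and 12 unstimulated reached the floor in Jmjd3-/- cells, against 8 and 4 in wild-type cells. Their summed levels were log2 14.7 and 14.9 in Jmjd3-/- cells, against 10.1 and 9.72 in wild type. The granulocyte marker Mmp8 (-3.41 with LPS and -2.43 unstimulated) and the stromal marker Thy1 (-2.31 and -1.15) went the other way, lower on both Jmjd3-/- arrays. None of the 8 adipocyte markers found, Adipoq and Cidec among them, reached the floor on any array. Dendritic markers that reached the floor numbered 2 of 9 with LPS and none unstimulated in Jmjd3-/- cells, against 4 and 3 in wild type. Of 7 lymphoid markers none reached it on either Jmjd3-/- array, against 2 on each wild-type array. The part of these cells in the genotype differences below was not tested, and in such bulk samples fewer cells of a type and less RNA per cell cannot be told apart.

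**Figure D1:**
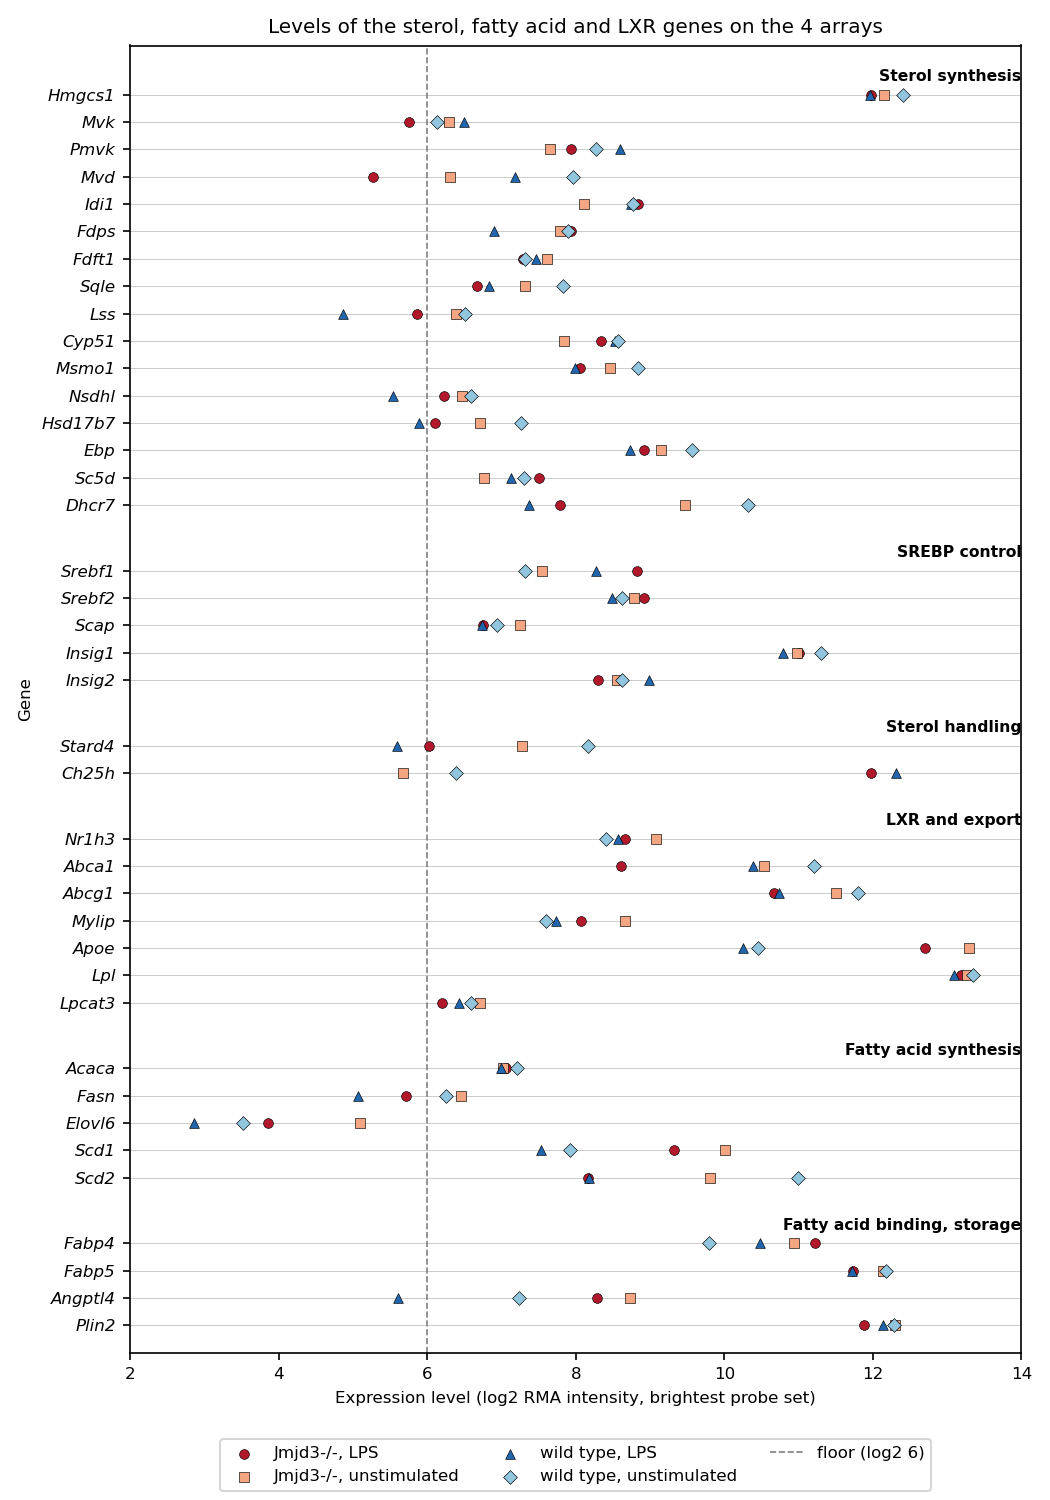
Expression level of each of the 39 genes on the 4 arrays, as log2 RMA intensity of the brightest probe set, with the floor of log2 6 as a dashed line. Ch25h shows the widest gap, with both LPS arrays near 12 and both unstimulated arrays near 6, and Apoe and Scd1 lie higher on both Jmjd3-/- arrays.

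With LPS, the cells had less message of the sterol enzymes Dhcr7, Sqle and Mvd, of the sterol carrier Stard4, of the desaturase Scd2 and of the exporters Abca1 and Abcg1, and far more of the oxysterol-making enzyme Ch25h. In the additive model 8 of 38 genes fell and 2 rose, and 28 did not pass. Over all 9385 genes 18.8% fell and 11.2% rose, so the share of these genes that fell lay near that of all genes, and the share that rose lay below it. The median LPS effect of the 38 genes was -0.34, against -0.22 over all genes. Taken over these 9385 genes, the array medians were themselves lower with LPS by 0.12 in each genotype. With each array centred on that median, 5 of the 38 genes fell and 2 rose, and over all genes 1185 rose and 1300 fell in place of 1054 and 1769. Mvd, Sqle and Fabp5 were the genes whose call ended there, with adjusted p of 0.0607, 0.0676 and 0.112 in that limma fit, and their calls also ended with no floor, with adjusted p of 0.0672, 0.0767 and 0.0842.

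Ch25h, which encodes cholesterol 25-hydroxylase, the enzyme that makes 25-hydroxycholesterol and an interferon-inducible gene, had the largest LPS effect of the group. It read 11.98 with LPS against 5.68 unstimulated in Jmjd3-/- cells, and 12.31 with LPS against 6.38 unstimulated in wild-type cells. Both LPS arrays were thus far above both unstimulated ones, by 79.0-fold in Jmjd3-/- and 60.9-fold in wild-type cells, the first measured against a reading under the floor. The gene rose by 6.12 (SE 0.20, limma adjusted p = 0.00177, with both genotypes higher), and it was the only one of the 10 calls that held when the genotype term was left out of the model.

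In sterol synthesis 3 of 16 genes fell and none rose, where over all genes 18.8% fell and 11.2% rose. The median was -0.48, against -0.22 over all genes. Of the 16 effects 12 lay below 0, where over all genes 5995 of 9385 did. Those of Mvk and Fdft1 (both -0.09) did so by less than the shift of 0.12 in the array medians. Dhcr7, the reductase that makes cholesterol in the last step of one branch of the pathway, had the largest effect. It read 7.79 with LPS against 9.48 unstimulated in Jmjd3-/- cells, and 7.36 with LPS against 10.32 unstimulated in wild-type cells. Both LPS arrays lay below both unstimulated arrays, and the gene fell by 2.32 (SE 0.34, limma adjusted p = 0.0130). Sqle, squalene epoxidase, a rate-setting enzyme after HMG-CoA reductase, read 6.67 with LPS against 7.32 unstimulated in Jmjd3-/- cells, and 6.83 with LPS against 7.83 unstimulated in wild type. It fell by 0.83 (limma adjusted p = 0.0429). Mvd, the decarboxylase that makes isopentenyl diphosphate, read 5.27 with LPS against 6.31 unstimulated in Jmjd3-/- cells, and 7.19 with LPS against 7.96 unstimulated in wild type. It fell by 0.91 (limma adjusted p = 0.0399), though the groups with and without LPS overlapped, with both Jmjd3-/- arrays below both wild-type arrays. Its brightest probe set is of a less specific class. Without probe sets of such classes the Mvd effect was -0.71 and did not pass (limma adjusted p = 0.141).

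Other sterol enzymes were 2-fold or more lower with LPS in wild-type but not in Jmjd3-/- cells, and did not pass in the additive model. Lss, lanosterol synthase, which closes the sterol rings, read 5.86 with LPS against 6.39 unstimulated in Jmjd3-/- cells and 4.87 with LPS against 6.51 unstimulated in wild-type cells. Its brightest probe set belongs to a less specific class, and the next one gave a wild-type difference of -0.95 in place of -1.65. Nsdhl, a demethylating dehydrogenase of the same stretch, read 6.22 with LPS against 6.46 unstimulated in Jmjd3-/- cells and 5.54 with LPS against 6.60 unstimulated in wild type. Hsd17b7, a sterol ketoreductase, read 6.10 with LPS against 6.72 unstimulated in Jmjd3-/- cells and 5.88 with LPS against 7.26 unstimulated in wild type. Its brightest probe set is of a less specific class too, and its other 3 probe sets lay under the floor on all 4 arrays. In Lss, Nsdhl and Hsd17b7 the wild-type LPS array was the lowest of the 4 and lay under the floor. Fdps, farnesyl diphosphate synthase, was also lowest on the wild-type LPS array: it read 7.93 with LPS against 7.79 unstimulated in Jmjd3-/- cells, and 6.90 with LPS against 7.90 unstimulated in wild type.

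The other sterol enzymes did not pass, with effects on both sides of 0. Hmgcs1, the HMG-CoA synthase that feeds the pathway, had an LPS effect of -0.31 (limma adjusted p = 0.120). Its direction in Jmjd3-/- cells depended on the probe set. The brightest differed by -0.17, and the other 3 that reached the floor on all 4 arrays were higher, by 0.17, 0.16 and 0.46. All 4 were lower in wild type. Idi1 (0.35), Pmvk (0.31), Sc5d (0.28) and Cyp51 (0.22) had effects above 0, and Mvk, Fdft1, Msmo1 and Ebp effects between -0.09 and -0.62, none of which passed. Msmo1 has a second, dimmer probe set that was also lower with LPS in both genotypes. Averaged over its probe sets, Msmo1 had an effect of -0.77 and passed (limma adjusted p = 0.0353).

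Stard4 and the SREBP genes went different ways. Stard4 encodes a small carrier that moves cholesterol between membranes and is itself an SREBP target. It read 6.02 with LPS against 7.27 unstimulated in Jmjd3-/- cells, and 5.59 with LPS against 8.16 unstimulated in wild-type cells. It fell by 1.91 (SE 0.37, limma adjusted p = 0.0230), while averaged over its 3 probe sets the value was -1.40 and did not pass (limma adjusted p = 0.0666). Srebf1, the gene of SREBP1, was the other gene that rose. It read 8.82 with LPS against 7.54 unstimulated in Jmjd3-/- cells, and 8.27 with LPS against 7.31 unstimulated in wild type, so both LPS arrays lay above both unstimulated ones. The increase was 1.12 (SE 0.20, limma adjusted p = 0.0182). Srebf2 (0.00), Scap (-0.35), Insig1 (-0.24) and Insig2 (0.05) did not pass. A second Srebf2 probe set, reaching the floor on all 4 arrays, was higher with LPS by 0.62 in Jmjd3-/- and 0.45 in wild-type cells.

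Among the 7 genes of LXR and export 2 fell, where over all genes 18.8% fell. All 7 had LPS effects below 0, with a median of -0.33, where over all genes 5995 of 9385 effects lay below 0. The effect of Nr1h3 (-0.12) was no larger than the shift of the array medians over the 9385 genes. Abcg1, which exports cholesterol to HDL, read 10.67 with LPS against 11.50 unstimulated in Jmjd3-/- cells, and 10.74 with LPS against 11.81 unstimulated in wild-type cells. It fell by 0.95 (SE 0.15, limma adjusted p = 0.0141), and on this probe set the genotypes were close together in each state. A dimmer Abcg1 probe set read 6.20 in unstimulated Jmjd3-/- cells, against 4.99 in unstimulated wild type. With LPS it read 3.94 and 4.02, and only the unstimulated Jmjd3-/- array reached the floor. Abca1, which loads cholesterol onto apolipoprotein A-I, read 8.61 with LPS against 10.54 unstimulated in Jmjd3-/- cells, and 10.39 with LPS against 11.21 unstimulated in wild type. It fell by 1.38 (SE 0.30, limma adjusted p = 0.0303), a call that ended without the intensity trend (limma adjusted p = 0.0569). The Jmjd3-/- LPS array stood apart as the lowest, and the other 2 Abca1 probe sets also read lowest there, at 4.73 and 2.84, both under the floor. Nr1h3, which encodes LXR alpha, had an effect of -0.12, and Mylip, Apoe, Lpl and Lpcat3 effects between -0.17 and -0.40, none of which passed. Mylip encodes the ligase that degrades the LDL receptor, Apoe a lipoprotein ligand, Lpl lipoprotein lipase and Lpcat3 a phospholipid-remodelling enzyme.

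Of the 4 fatty acid synthesis genes past the floor 1 fell, where over all genes 18.8% fell. Scd2, a stearoyl-CoA desaturase that puts the double bond into newly made fatty acids, read 8.17 with LPS against 9.80 unstimulated in Jmjd3-/- cells, and 8.18 with LPS against 10.99 unstimulated in wild type. The LPS arrays were nearly equal and the unstimulated ones were both higher, and the gene fell by 2.23 (SE 0.32, limma adjusted p = 0.0127). Its second probe set, reaching the floor on all 4 arrays, had the same order of LPS and unstimulated arrays. It read 6.83 and 8.23 in Jmjd3-/- cells and 6.77 and 10.03 in wild type. The related Scd1 had an LPS effect of -0.54 and Acaca, acetyl-CoA carboxylase, of -0.08, and neither passed. Fasn, fatty acid synthase, read 5.71 with LPS against 6.46 unstimulated in Jmjd3-/- cells and 5.07 with LPS against 6.26 unstimulated in wild type, and its effect of -0.97 did not pass (limma adjusted p = 0.0665). The same effect passed without the intensity trend (limma adjusted p = 0.0458) and in the fit to the means of all probe sets (limma adjusted p = 0.0471).

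In fatty acid binding and storage, Fabp5, a fatty acid carrier, read 11.74 with LPS against 12.13 unstimulated in Jmjd3-/- cells and 11.71 with LPS against 12.17 unstimulated in wild type. It fell by 0.43 (limma adjusted p = 0.0469), a small difference of similar size in both genotypes. Fabp4 (0.48), Plin2, the lipid droplet coat protein gene (-0.28), and Angptl4, which encodes an inhibitor of lipoprotein lipase (-1.04), did not pass.

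**Figure D2:**
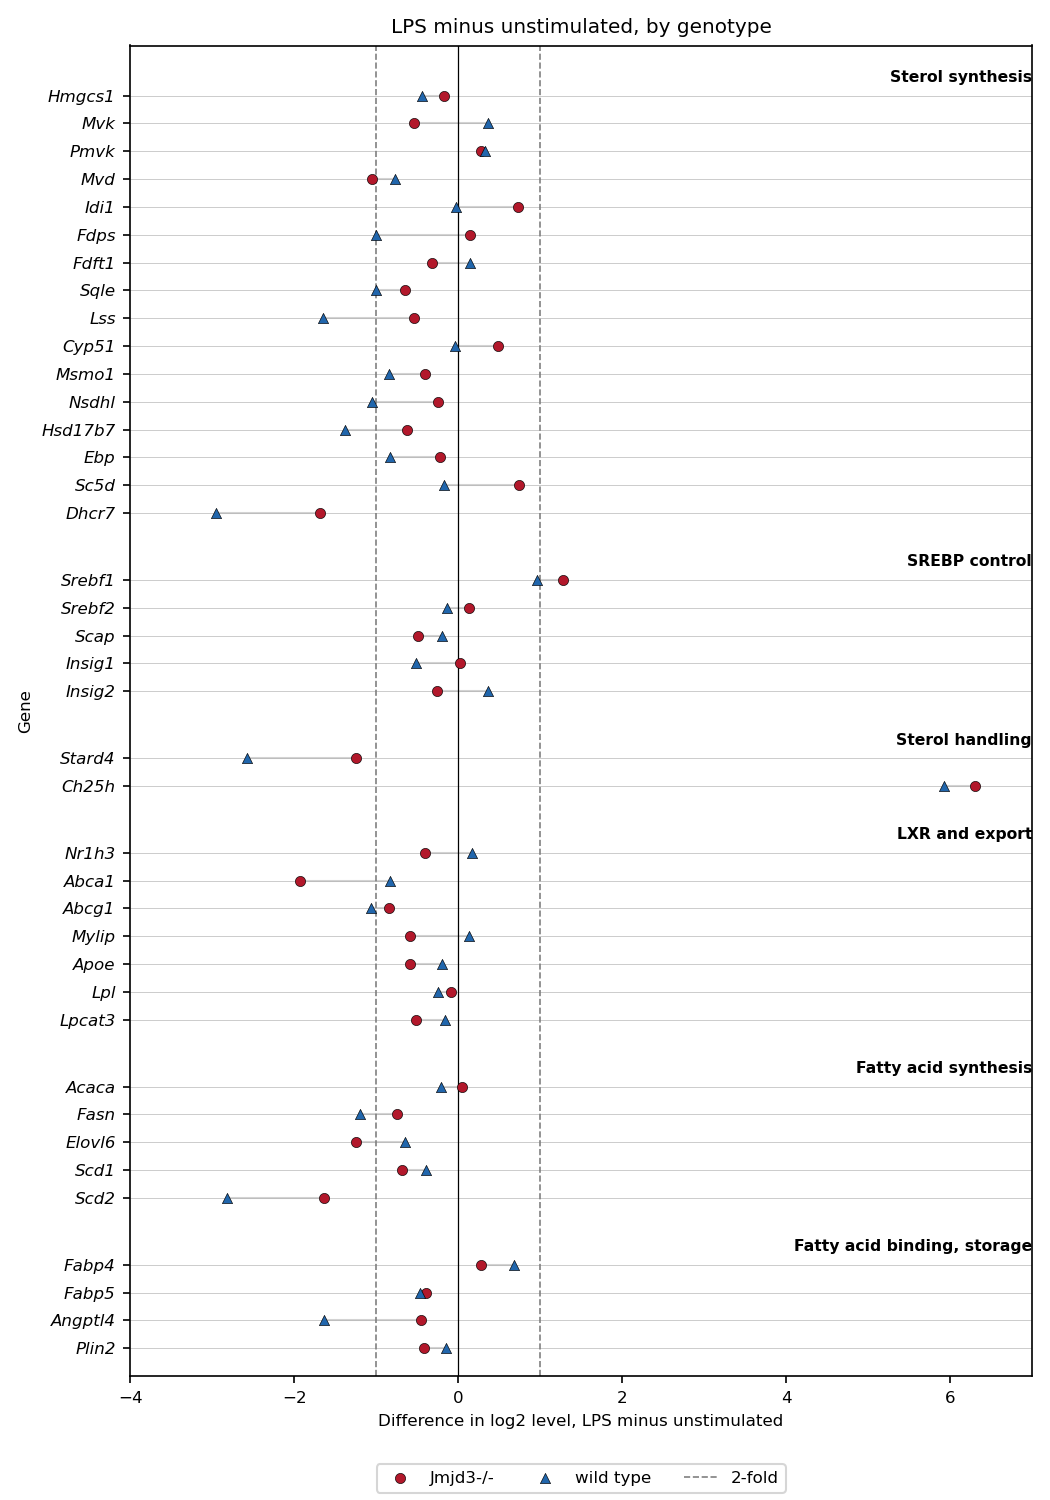
Difference in log2 level between the LPS and unstimulated arrays for each gene, in Jmjd3-/- cells (circles) and wild-type cells (triangles), with dashed lines at 2-fold. Dhcr7, Stard4 and Scd2 lie at -1.69, -1.25 and -1.64 in Jmjd3-/- cells and at -2.95, -2.58 and -2.82 in wild type, the lowest wild-type differences of the group.

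Taken by genotype, 5 of 38 genes were 2-fold or more lower with LPS in Jmjd3-/- cells and 2 higher, where over all genes 15.5% were lower and 11% higher. In wild-type cells 10 were lower and 1 higher, where over all genes 14.3% were lower and 9.86% higher. With centred arrays the wild-type counts were 7 lower and 2 higher. Over all genes they were then 998 lower and 976 higher, in place of 1233 and 851. The medians over the 38 genes were -0.40 in Jmjd3-/- and -0.32 in wild-type cells, against -0.26 and -0.19 over all genes. In sterol synthesis alone the medians were -0.28 in Jmjd3-/- and -0.80 in wild-type cells, with 2 and 5 of 16 genes 2-fold or more lower. The responses of the genotypes, which share no array, correlated at r = 0.88 over the 38 genes and at r = 0.68 without Ch25h (Spearman rho 0.61 and 0.58), as a description over genes of arrays normalized together.

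The difference between the responses, Jmjd3-/- minus wild type, has no test in this design. It was 1 or more for 6 of the 38 genes and -1 or less for 1, where over all genes 5.19% and 4.73% lay that far. The 6 were Stard4 (1.32), Dhcr7 (1.27), Angptl4 (1.18), Scd2 (1.18), Fdps (1.14) and Lss (1.11), and the 1 was Abca1 (-1.11). In sterol synthesis 12 of 16 genes had a difference above 0, where over all genes 4463 of 9385 did. The median was 0.57, against -0.03 over all genes. Counted over the means of all probe sets, 3 genes lay at 1 or more and none at -1 or less, and with 64 added to the linear values 2 and none. No such counts over all genes were made in these settings.

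The LXR element can be read in the promoters of 3 of these genes, which are shown here because a match was found in them. They are textbook LXR targets of which 1 fell with LPS, 1 rose and 1 did not pass. LXR with RXR binds a direct repeat, searched as 2 copies of GGTNA with any 5 bases between them, and SREBP binds a sterol regulatory element, searched as TCACNCCAC. Each was searched on both strands in the 250 bases before the start of the gene, in RefSeq windows of build GRCm38.p6, which held 28 of the 39 genes. The repeat was found in Abca1, Srebf1 and Fasn, 3 of 28, against 0.707% of 27025 genes. Mylip and Lpcat3, of the LXR and export list, had windows without it. The sterol element was found in 1, Hmgcs1, against 1.22% of genes. The box CCAAT, which binds a common partner of SREBP, was found in 21 of 28, against 37.5%, and overlapped none of the matches shown. The windows below run from 250 bases upstream to the start, 5′ to 3′ on the gene's strand, with the match in capitals: Abca1 at chr4:53159896-53160145, Srebf1 at chr11:60210472-60210721, from 1 of its 3 windows, and Fasn at chr11:120824548-120824797, all on the minus strand, and Hmgcs1 at chr13:119690101-119690350 on the plus strand. In the first 3 the capitals are the repeat, read on the opposite strand, and in Hmgcs1 the sterol element.
Abca1: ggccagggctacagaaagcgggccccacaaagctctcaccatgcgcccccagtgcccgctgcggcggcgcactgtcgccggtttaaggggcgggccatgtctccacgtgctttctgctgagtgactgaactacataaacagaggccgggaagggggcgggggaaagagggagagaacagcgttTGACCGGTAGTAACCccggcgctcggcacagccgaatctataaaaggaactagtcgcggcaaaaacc
Srebf1: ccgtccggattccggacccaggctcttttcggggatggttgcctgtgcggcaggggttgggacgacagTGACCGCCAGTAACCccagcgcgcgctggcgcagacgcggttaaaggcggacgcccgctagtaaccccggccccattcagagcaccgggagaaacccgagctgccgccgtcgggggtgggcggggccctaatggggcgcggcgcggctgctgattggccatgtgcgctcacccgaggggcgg
Fasn: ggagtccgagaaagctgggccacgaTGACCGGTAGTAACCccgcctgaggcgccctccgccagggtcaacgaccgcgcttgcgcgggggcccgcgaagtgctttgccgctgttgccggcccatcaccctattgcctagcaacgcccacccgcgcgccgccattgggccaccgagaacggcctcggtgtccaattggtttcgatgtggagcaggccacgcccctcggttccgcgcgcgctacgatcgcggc
Hmgcs1: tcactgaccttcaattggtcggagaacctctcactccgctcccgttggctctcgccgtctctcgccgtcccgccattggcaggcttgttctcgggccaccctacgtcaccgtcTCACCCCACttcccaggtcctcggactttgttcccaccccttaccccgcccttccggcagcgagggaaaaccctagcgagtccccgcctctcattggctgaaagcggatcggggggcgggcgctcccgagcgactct

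The same 15 letters stood in Abca1, 67 to 53 bases before the start, and in Fasn, 225 to 211 bases before it. Abca1 fell with LPS and Fasn, with values under the floor on both LPS arrays, did not pass, while without the intensity trend Fasn passed and Abca1 did not. Srebf1, with its match 182 to 168 bases before the start, rose. A match is a description of these letters and no evidence of binding in these cells.

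Between the genotypes, Jmjd3-/- cells had more message of Apoe, Scd1, Angptl4 and Fabp4 and less of Mvd, in both states. In the additive model 4 of 38 genes rose and 1 fell, where over all genes 6.39% rose and 3.12% fell, and the median was -0.07, against 0.05 over all genes. Most of the sterol genes were not among them: in sterol synthesis Mvd alone passed. In that list 12 of 16 effects lay below 0, with a median of -0.16, where over all genes 4218 of 9385 lay below 0. No call between genotypes held when the LPS term was left out of the model, where 111 of 9385 genes passed.

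Apoe, the apolipoprotein E gene, had the largest genotype effect of the group. It read 12.71 with LPS and 13.30 unstimulated in Jmjd3-/- cells, against 10.25 with LPS and 10.46 unstimulated in wild-type cells. Both Jmjd3-/- arrays were far above both wild-type arrays, by 5.48-fold with LPS and 7.18-fold without. The gene rose by 2.65 (SE 0.15, limma adjusted p = 0.00184, with both states higher).

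Scd1, the other desaturase, read 9.33 with LPS and 10.01 unstimulated in Jmjd3-/- cells, against 7.53 with LPS and 7.92 unstimulated in wild type. It rose by 1.94 (SE 0.19, limma adjusted p = 0.00708). Its close relative Scd2 was not higher: the genotype difference was -0.01 with LPS and -1.19 unstimulated, and the effect of -0.60 did not pass (limma adjusted p = 0.342). Angptl4 read 8.29 with LPS and 8.74 unstimulated in Jmjd3-/- cells, against 5.60 with LPS and 7.24 unstimulated in wild type. It rose by 2.09 (SE 0.33, limma adjusted p = 0.0255), and the wild-type LPS array was under the floor. Its brightest probe set is of a less specific class, and its other probe set lay under the floor on all 4 arrays. Fabp4, a fatty acid carrier of macrophages and fat cells, read 11.22 with LPS and 10.94 unstimulated in Jmjd3-/- cells, against 10.48 with LPS and 9.80 unstimulated in wild type. It rose by 0.94 (limma adjusted p = 0.0424), close to the threshold: in 5 of 7 other settings that kept both terms the call ended, with adjusted p between 0.0512 and 0.169. The Angptl4 call ended at a floor of log2 8 (limma adjusted p = 0.0520) and without the intensity trend (limma adjusted p = 0.0520). These 4 genes were higher on the same arrays as most of the granulocyte and stromal markers given above, and their part was not tested, while the adipocyte markers found were under the floor on all 4 arrays.

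Mvd was the gene that fell. With LPS it read 5.27 in Jmjd3-/- and 7.19 in wild-type cells, and unstimulated 6.31 and 7.96. It fell by 1.78 (SE 0.22, limma adjusted p = 0.0134). Its brightest probe set is of a less specific class and was under the floor on the Jmjd3-/- LPS array. The other Mvd probe set read 4.66 and 5.28 in Jmjd3-/- cells with and without LPS, against 5.89 and 6.70 in wild type. That is the same order of arrays, but only the unstimulated wild-type array reached the floor. Taken alone it gave -1.32, which did not pass (limma adjusted p = 0.0780). Abca1 had a genotype difference of -1.78 with LPS and -0.67 unstimulated and did not pass (limma adjusted p = 0.0794). Mylip read 8.08 with LPS and 8.66 unstimulated in Jmjd3-/- cells, against 7.74 with LPS and 7.60 unstimulated in wild type, and its effect of 0.70 did not pass.

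State by state, with LPS 4 of 36 genes were higher by at least 2-fold in Jmjd3-/- cells (Apoe, Angptl4, Scd1 and Fdps) and 2 lower (Mvd and Abca1), where over all genes 9.76% were higher and 5.65% lower. Unstimulated, 5 of 38 were higher (Apoe, Scd1, Angptl4, Fabp4 and Mylip) and 2 lower (Mvd and Scd2), where over all genes 9.54% were higher and 5.74% lower. These counts lay near the shares of all genes. Sterol synthesis genes had a median genotype difference of 0.07 with LPS, over the 15 past the floor, and -0.46 unstimulated. Over all genes the medians were 0.04 and 0.07. In unstimulated cells 14 of the 16 lay below 0, where over all genes 3907 of 9045 did.

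**Figure D3:**
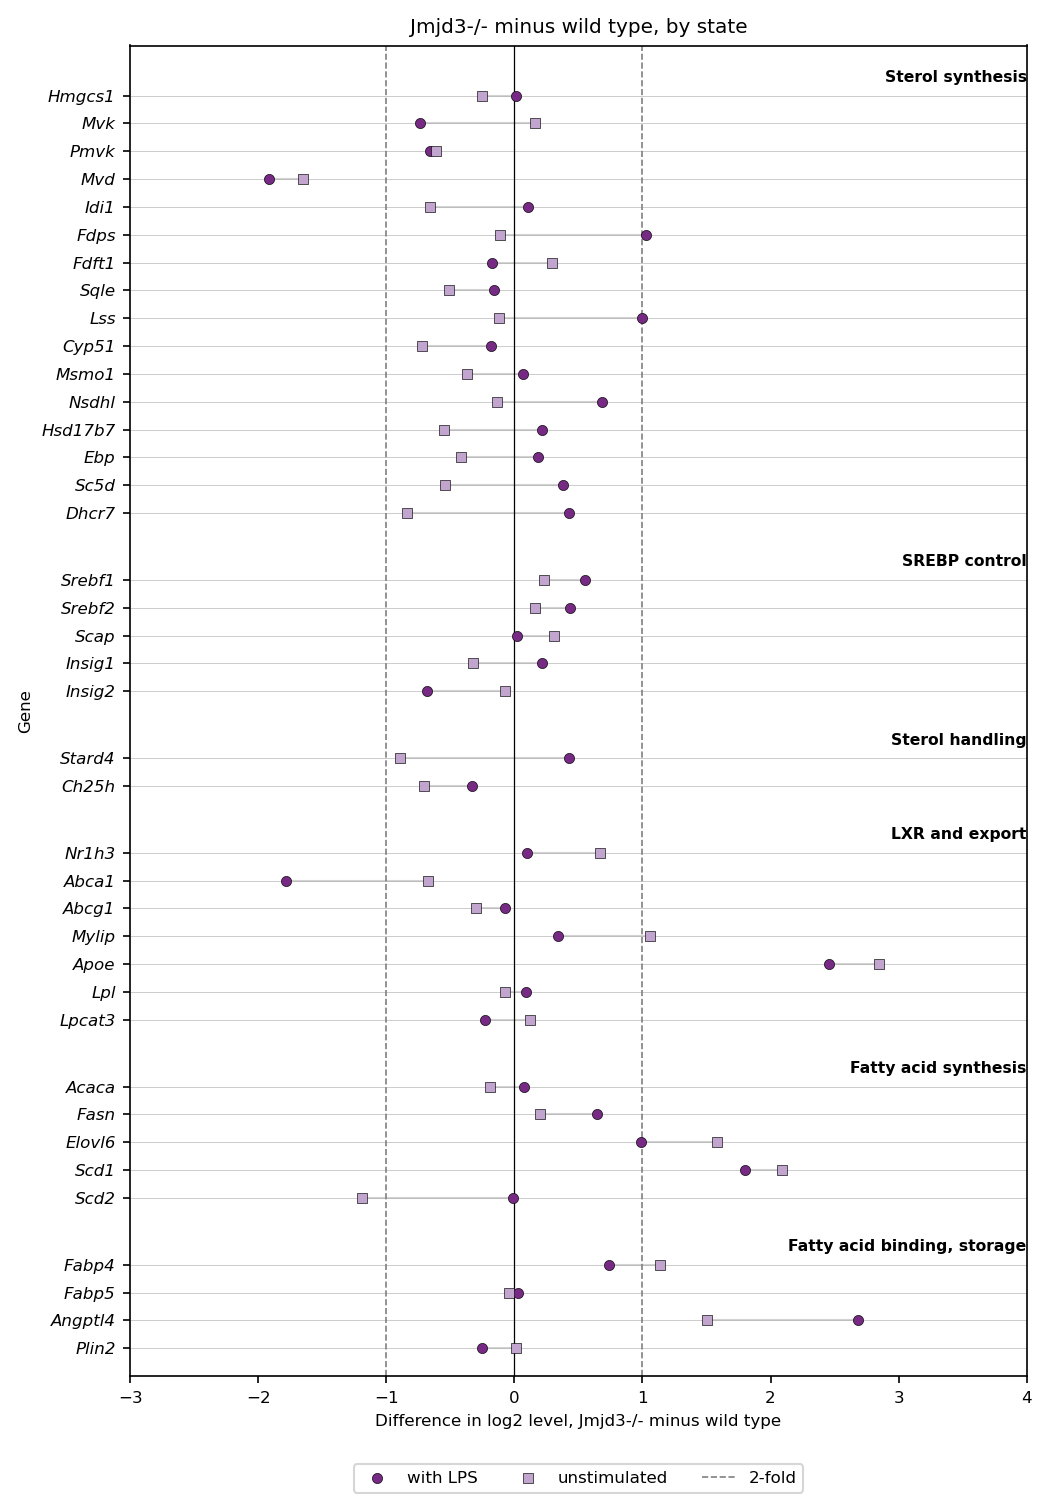
Difference in log2 level between the Jmjd3-/- and wild-type arrays for each gene, with LPS (circles) and unstimulated (squares), with dashed lines at 2-fold. Apoe, Scd1 and Angptl4 lie beyond 2-fold to the right in both states and Mvd beyond 2-fold to the left, while Abca1 lies beyond it with LPS alone.

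**Figure D4:**
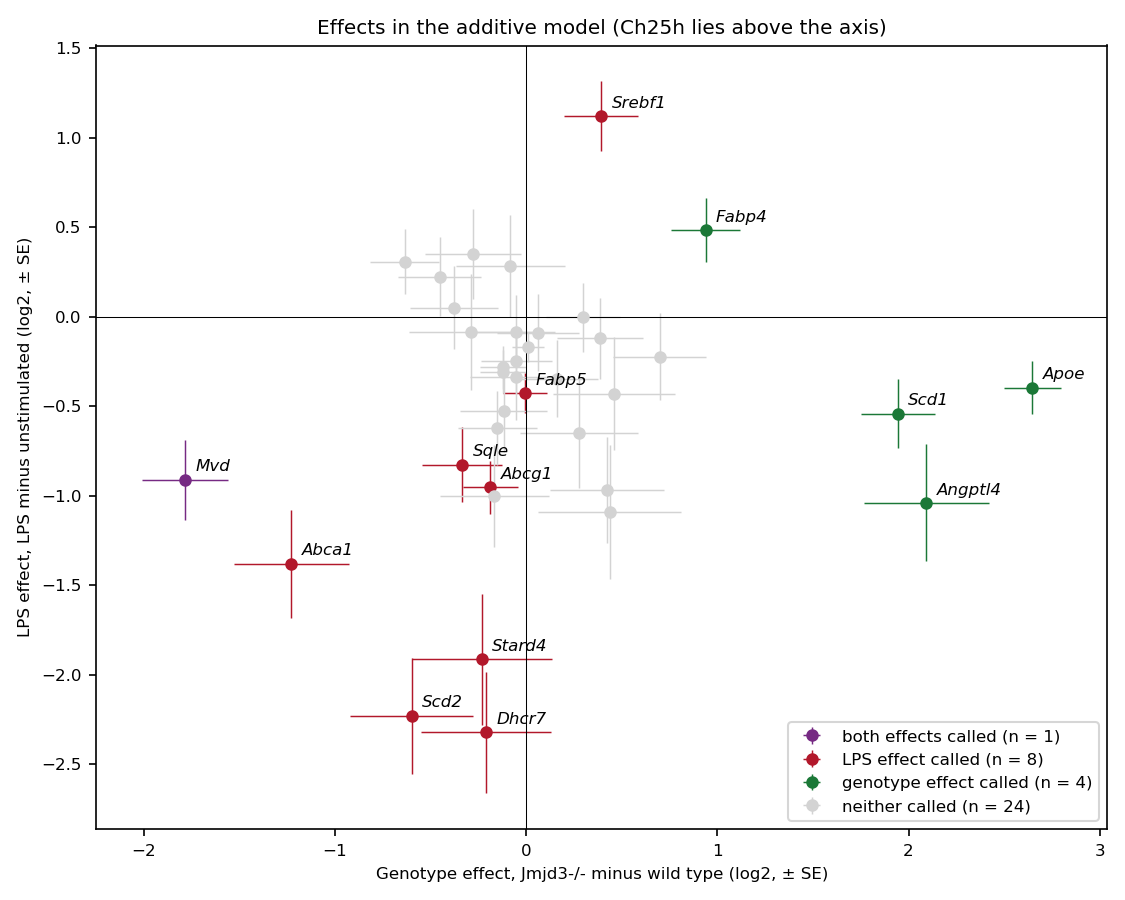
LPS effect against genotype effect of 37 genes in the additive model, in log2 units with standard errors as bars, and genes called in either named. Ch25h, at an LPS effect of 6.12, lies outside the axis, and Mvd is the gene called for both effects.

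Genes of the same pathways outside the list gave further values. Of 68 such genes 57 were found and 52 reached the floor, and with LPS 18 of them fell and 1 rose, where over all genes 18.8% fell and 11.2% rose. Among 16 sterol genes past the floor 8 fell, led by Gpr183 (-2.10), the receptor of oxysterols made downstream of Ch25h, and Nceh1 (-1.97), a cholesteryl ester hydrolase, and Rnf139 (0.80), a sterol-regulated ubiquitin ligase, rose. Among 25 fatty acid genes 6 fell and none rose, led by Lpin1 (-2.93), a phosphatidate phosphatase, and Fads1 (-1.99), a desaturase of polyunsaturated fatty acids. Among 11 genes of LXR partners, PPARs and their targets 4 fell and none rose, led by Rxra (-2.53), the partner of LXR, and Pparg (-1.78). Rxra read 6.24 with LPS against 9.49 unstimulated in Jmjd3-/- cells, and 7.90 with LPS against 9.71 unstimulated in wild type.

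Between genotypes 2 of these 52 genes rose and 2 fell, where over all genes 6.39% rose and 3.12% fell, so the counts lay near the shares of all genes. Vldlr, a receptor that binds apolipoprotein E, rose by 3.03 in Jmjd3-/- cells (limma adjusted p = 0.00422), and Lbr, a sterol reductase of the nuclear membrane, by 1.43 (limma adjusted p = 0.0158). Acss2, which makes acetyl-CoA from acetate, fell by 2.30 (limma adjusted p = 0.00460), and Mgll, monoglyceride lipase, fell by 1.73 (limma adjusted p = 0.0149).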

How the data were processed

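The authors deposited log2 intensities per probe set, made with RMA according to the submitters' processing notes. Its version and settings were not given in the sources used here. Of 45101 probe sets, 34945 named 1 gene in GEO's platform annotation, 932 named several, and the other 9224 were controls or unnamed here. For 34741 the gene matched RefSeq of GRCm38.p6, and 204 kept the annotation's symbol. Each of 18193 genes was represented by its brightest probe set.

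Differences between 2 arrays were counted at 2-fold, for genes at or above log2 6 on the higher array. The additive model was fitted with limma 3.58.1 in R 4.3.3, with an intensity trend and Benjamini-Hochberg adjustment over 9385 genes, and was tested on simulated data. The number of arrays, 1 a group, limits the precision. Tables were made with Python 3.11.15, numpy 2.4.6 and pandas 2.3.3.

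Members, lists and alternatives were chosen with earlier results of these data known. Members differing 2-fold in a comparison of 2 arrays, or called, are given on every array, and the 2 largest effects in each direction name the other pathway genes. Alternatives were the floor, the probe set choice, the scaling, the variance trend and the other model term. Some genes of the lists were not found and are not reported here.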

Additional observations from a re-analysis of the deposited data

Results flagged for a closer look

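In 4 genes the genotype difference had opposite signs in the 2 states and the LPS responses differed by 2-fold or more. Stard4 had a difference between responses of 1.32, with the Jmjd3-/- minus wild type difference at 0.43 with LPS and -0.89 unstimulated. For Dhcr7 it was 1.27, with 0.42 with LPS and -0.84 unstimulated. Fdps gave 1.14, with 1.03 with LPS and -0.11 unstimulated, and Lss gave 1.11, with 0.99 with LPS and -0.12 unstimulated. The Lss signs rest on a less specific probe set: the next one gave -0.01 with LPS and -0.63 unstimulated, a difference between responses of 0.62. The difference was not tested, since each group held 1 array. Lss lay under the floor on both LPS arrays and Stard4 on the wild-type LPS array, and after adding 64 to each linear value the differences of Stard4, Fdps and Lss were 0.88, 0.83 and 0.46.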

How the results depend on the processing

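No paired analysis was possible because each group held 1 array, and for the same reason no array could be left out of the additive model with a residual degree of freedom remaining. No called value changed direction under any alternative run. With another floor or none, without the intensity trend or without the other model term it could not, since these leave the effect itself unchanged. Of the 15 calls in the additive model, Dhcr7, Scd2, Srebf1, Abcg1 and Ch25h for LPS and Apoe and Scd1 for genotype passed under each alternative that kept both model terms. Without the genotype term 1 member rose with LPS and none fell, where over all 9385 genes 183 rose and 84 fell. Without the LPS term none rose and none fell between genotypes, where over all genes 100 rose and 11 fell. At a floor of log2 8, 3 members were 2-fold or more lower with LPS in Jmjd3-/- cells and 4 in wild type, and 1 was lower between genotypes in each state. In the additive model at that floor 2 rose between genotypes and none fell, where 298 of all 6331 genes rose and 163 fell. Counts at 2-fold over all genes were made in the main setting and with centred arrays only. With 64 added to the linear values, 3 members were lower with LPS in Jmjd3-/- cells and 4 in wild type, and the difference of responses was 1 or more for 2 and -1 or less for none. With the mean of all probe sets, 2 members were higher in LPS-treated and 3 in unstimulated Jmjd3-/- cells, and the difference of responses was 1 or more for 3 and -1 or less for 0. In the additive model 2 rose between genotypes, where 341 of all 7819 genes rose. Without probe sets of the less specific classes, 1 was lower between genotypes with LPS, and 2 rose and 0 fell in the additive model. Over all 9181 genes of that fit 517 rose and 248 fell. Without the intensity trend 2 rose between genotypes, where 550 of all 9385 genes rose. With centred arrays 2 members were higher with LPS in wild type and 5 fell with LPS in the additive model. Some settings gave no value for a member under their floor, such as Angptl4 with the mean of its probe sets. Members near log2 6, such as Lss, Fasn, Nsdhl and Stard4, carry the sizes most limited by background.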
